A study of Mus musculus with 6 samples.

Results

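The VEGF ligands (Vegfa, Vegfb, Vegfc, Vegfd and Pgf), their receptor tyrosine kinases (Flt1, Kdr and Flt4) and the neuropilins (Nrp1 and Nrp2) were followed in the RNA-Seq transcriptome of coronary endothelial cells (ECs) that had lost Wt1. These 10 genes were chosen by name, and all 10 were found among the 55416 genes of the table. The libraries came from ventricles of mouse hearts at E15.5, with 3 from ControlΔEC and 3 from Wt1KOΔEC embryos. Both genotypes were Pdgfb(CreERT2/+) and R26(mTmG/+), and they differed at Wt1, which was Wt1(+/+) in ControlΔEC and Wt1(loxP/loxP) in Wt1KOΔEC. The library codes began with AT in every ControlΔEC library and with AU in every Wt1KOΔEC library. What the codes mark is not stated, and any difference between the code series cannot be told apart from genotype. All dams had received tamoxifen (75 mg/kg), first at E11.5 and last at E13.5, so that the controls shared both the Cre and the drug. Cells were sorted for membrane GFP, the product of the recombined reporter, and the material was therefore limited to cells in which the Pdgfb-driven Cre had acted.

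VEGF-A is the principal growth signal of blood vessel endothelium and acts through KDR (VEGFR2), while FLT1 (VEGFR1) binds the same ligand tightly with weak kinase activity and can hold it away from KDR. PGF and VEGF-B bind FLT1 alone among the kinases, and VEGF-C and VEGF-D act through FLT4 (VEGFR3), the main receptor of lymphatic growth. Neuropilins have no kinase domain and present ligands to these receptors, NRP1 more in arterial and NRP2 more in venous and lymphatic endothelium. In the embryonic heart the ligands come largely from cardiomyocytes and other neighbours of the vessels, and ECs carry the receptors.

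Libraries held 26037324 to 44779020 counts, and 3 counts, taken as the limit of detection, corresponded to 0.0608 to 0.119 CPM, the counts of a gene scaled to a common library size. The targeted gene matched the labels. Wt1 stood at 145, 109.6 and 149 CPM in ControlΔEC and at 14.0, 18.4 and 21.3 CPM in Wt1KOΔEC (log2 fold change -2.91, SE 0.22, edgeR quasi-likelihood test with Benjamini-Hochberg adjusted p = 0.00319). Mitochondrial transcripts took 5.21% to 6.61% of counts in ControlΔEC and 1.68% to 4.57% in Wt1KOΔEC, without overlap, and the part of this gap in the results was not tested. Of the 16296 genes tested, 12 were called (adjusted p below 0.05 and an absolute log2 fold change above 0.58), which is 0.0736% of them.

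None of the 10 VEGF genes was called between the genotypes. In edgeR 0 of the 10 reached an unadjusted p below 0.05, beside 13.1% of all genes tested, of which 5.96% were higher and 7.12% lower in Wt1KOΔEC. DESeq2 called 0 of the 10 against 3.64% of all genes, and limma-voom 0 of the 10 against 0.0491%. Each of these tools gave 1 member an unadjusted p below 0.05, in both cases Kdr (adjusted p = 0.223 in DESeq2 and 0.358 in limma-voom). Estimates were lower in Wt1KOΔEC for 6 members and higher for 4, with a median log2 fold change of -0.14 beside -0.03 over all genes tested. The 95% interval lay inside the fold limit of 0.58 in both directions for Flt1, Flt4 and Nrp1 only, and a change of that size in the other 7 was within the error. Because the libraries are bulk samples, fewer cells of a type and less RNA per cell cannot be told apart.

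**Figure D1:**
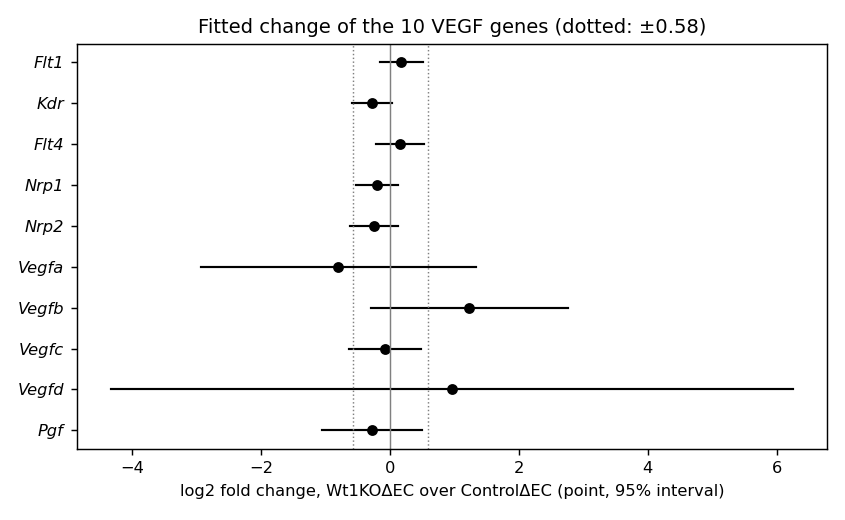
Log2 fold change of each VEGF gene in Wt1KOΔEC over ControlΔEC (x axis) from edgeR, with points as estimates and bars as 95% intervals over 3 libraries per genotype. Dotted lines stand at 0.58 in both directions, and all 10 intervals include 0.

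Kdr was the most abundant receptor, and it was the member nearest to the threshold. It stood at 1178, 1029 and 1202 CPM in ControlΔEC and at 942, 991 and 859.9 CPM in Wt1KOΔEC. All 3 Wt1KOΔEC libraries lay below all 3 ControlΔEC libraries, a separation that 8.97% of all tested genes showed in this direction. The means were 1136 ± 93.4 and 931 ± 66.4 CPM (SD, n = 3 each), with a log2 fold change of -0.29 (SE 0.14, 95% interval -0.60 to 0.03, adjusted p = 0.425). The exact two-sided permutation test gave p = 0.1, the smallest value that 3 against 3 libraries allow. With any single library left out, the estimate stayed between -0.35 and -0.23, and with total-count scaling it was -0.44. In ControlΔEC, Kdr ranked 59 among all genes by mean CPM.

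Flt1, the decoy-like receptor, stood at 654, 628 and 778 CPM in ControlΔEC and at 796, 809 and 719 CPM in Wt1KOΔEC. The highest ControlΔEC library lay above the lowest Wt1KOΔEC library, so the groups overlapped. Its log2 fold change was 0.17 (SE 0.15, 95% interval -0.16 to 0.50, adjusted p = 0.707), and with libraries scaled by total counts alone it was 0.022. It ranged from 0.11 without the second to 0.27 without the third ControlΔEC library. Flt4, the receptor for VEGF-C and VEGF-D, stood at 230.3, 259.8 and 223 CPM in ControlΔEC and at 290.2, 282 and 219 CPM in Wt1KOΔEC. The third Wt1KOΔEC library fell to the control level and the other two lay above it. Its log2 fold change was 0.15 (SE 0.16, 95% interval -0.22 to 0.52, adjusted p = 0.790), and with total-count scaling it was -0.0073. It ranged from 0.076 without the first to 0.27 without the third Wt1KOΔEC library, and was 0.099 without the second. Beside Flt4, the summed level of 6 lymphatic endothelial markers was 143, 76.3 and 114 CPM in ControlΔEC and 395, 323 and 248 CPM in Wt1KOΔEC. The part of these markers in the Flt4 level was not tested.

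Relative to Kdr, Flt1 and Flt4 transcripts were higher in every Wt1KOΔEC library than in any ControlΔEC library. The ratio of Flt1 to Kdr counts within a library does not depend on how libraries are scaled to each other. It was 0.556, 0.610 and 0.648 in ControlΔEC and 0.845, 0.816 and 0.836 in Wt1KOΔEC. Every Wt1KOΔEC library lay above every ControlΔEC library, with a difference of 0.46 on the log2 scale, or 1.38-fold. The ratio of Flt4 to Kdr was 0.196, 0.252 and 0.186 in ControlΔEC and 0.308, 0.284 and 0.255 in Wt1KOΔEC, a difference of 0.43 on the log2 scale, or 1.35-fold. These groups did not overlap either, although the nearest libraries were 0.252 and 0.255. Both ratios gave p = 0.1 in the exact two-sided permutation test, the smallest value possible, and an adjusted p of 0.3 over the 6 ratios computed, so neither passed a threshold of 0.05. Leaving out single libraries gave differences of 0.40 to 0.52 for Flt1 to Kdr and 0.34 to 0.56 for Flt4 to Kdr. The 2 ratios share Kdr as denominator and are not separate evidence. Of all single genes tested, 8.97% were lower and 10.3% higher in Wt1KOΔEC without overlap. The share over all pairs of genes was not computed.

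**Figure D2:**
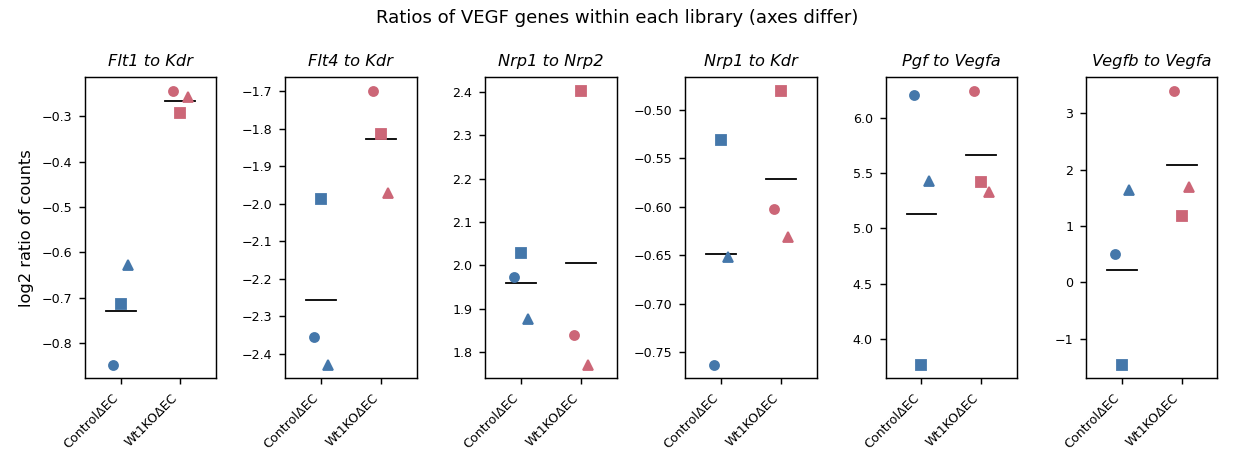
Log2 of the count ratio of pairs of VEGF genes within each library (y axis, with a range of its own in each panel) for ControlΔEC and Wt1KOΔEC; circles, squares and triangles are replicates 1, 2 and 3 and bars are means. Flt1 to Kdr and Flt4 to Kdr are higher in Wt1KOΔEC without overlap, and the other 4 ratios overlap.

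Expressed per kilobase of exon, the share of the receptor sum held by Kdr was 62.8%, 59.1% and 60.9% in ControlΔEC and 52.3%, 53.6% and 54.1% in Wt1KOΔEC. Flt1 held 23.5%, 24.3% and 26.5% in ControlΔEC and 29.7%, 29.4% and 30.5% in Wt1KOΔEC. For Flt4 the shares were 13.7%, 16.6% and 12.6% in ControlΔEC and 18.0%, 16.99% and 15.4% in Wt1KOΔEC, where the groups overlapped. The summed receptor level was 203 ± 12.7 CPM per kilobase in ControlΔEC and 190 ± 15.1 in Wt1KOΔEC (SD, n = 3 each), with overlap. Per kilobase of the longest transcript, the Kdr share was 56.2% to 59.7% in ControlΔEC and 49.1% to 50.5% in Wt1KOΔEC, again without overlap. These shares come from the same counts as the ratios and are not separate evidence.

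**Figure D3:**
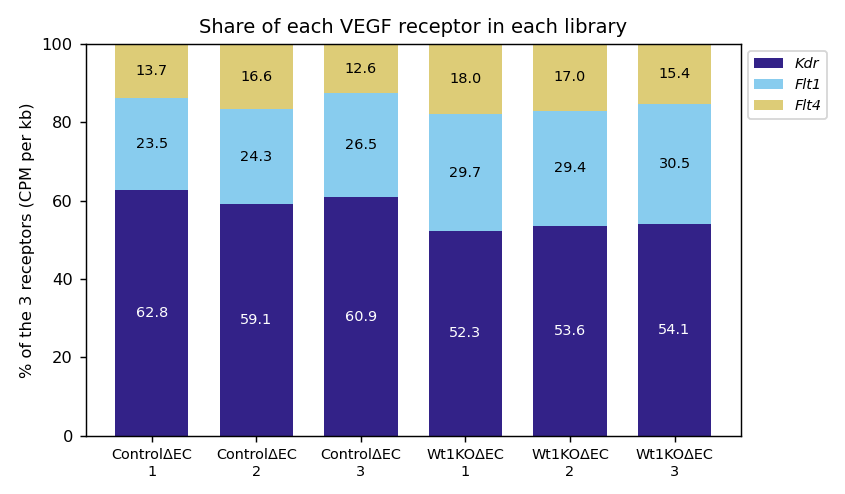
Share of Kdr, Flt1 and Flt4 in their summed CPM per kilobase of exon (y axis, percent) in each of the 6 libraries (x axis). The Kdr share is 59.1% to 62.8% in ControlΔEC and 52.3% to 54.1% in Wt1KOΔEC.

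The sequences before the start sites of Kdr and Flt1 are shown because they form the ratio with the larger difference of the 2 that did not overlap between genotypes, and because WT1 is a zinc finger factor that binds GC-rich DNA. In GRCm39, Kdr spans chr5:76093487-76139884 and Flt1 chr5:147498414-147662826, both on the minus strand. Both sequences were taken from RefSeq promoters, whose table uses GRCm38.p6, and each matched a single place in GRCm39. They are written 5′ to 3′ on the minus strand and lack the last 5 bases before the start. The Kdr stretch lies at chr5:76139121-76139365, upstream of the RefSeq start but inside the annotated gene, which has transcripts that begin further out. The Flt1 stretch at chr5:147662827-147663071 lies next to the annotated gene on its upstream side. Neither overlaps an annotated exon. Capitals mark GCGTGGG in Kdr and, in Flt1, CGCCCCCGC, the other strand of GCGGGGGCG.
Kdr: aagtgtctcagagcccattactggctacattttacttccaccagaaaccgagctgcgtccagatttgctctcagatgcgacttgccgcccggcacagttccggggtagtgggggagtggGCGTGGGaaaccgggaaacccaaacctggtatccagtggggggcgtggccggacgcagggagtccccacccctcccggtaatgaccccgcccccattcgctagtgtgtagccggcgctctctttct
Flt1: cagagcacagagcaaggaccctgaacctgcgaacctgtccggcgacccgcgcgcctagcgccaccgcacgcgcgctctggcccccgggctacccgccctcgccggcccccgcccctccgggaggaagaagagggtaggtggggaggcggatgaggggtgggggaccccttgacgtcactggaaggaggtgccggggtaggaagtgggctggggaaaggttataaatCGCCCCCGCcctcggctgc
These letters begin at position -131 of Kdr and -24 of Flt1, counted from the start site. GCGTGGG and GCGGGGGCG were searched on both strands of the 250 bases before each start. Of 32851 RefSeq promoters, 4.30% held GCGTGGG and 2.57% held GCGGGGGCG. Among the VEGF genes, GCGTGGG was found for Kdr and Nrp2, and GCGGGGGCG for Flt1 and Vegfb. A match describes the letters and is not a binding site.

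The neuropilins both had lower estimates in Wt1KOΔEC, and neither was called. The paper also reports no significant change of Nrp1 or Nrp2. Nrp1, the co-receptor of arterial endothelium, stood at 694, 713 and 765 CPM in ControlΔEC and at 621, 711 and 555 CPM in Wt1KOΔEC. The second Wt1KOΔEC library reached the control range and the other two lay under it. Its log2 fold change was -0.20 (SE 0.15, 95% interval -0.54 to 0.13, adjusted p = 0.637). It was -0.12 without the third Wt1KOΔEC library and -0.36 with total-count scaling. Nrp2, the co-receptor of venous and lymphatic endothelium, stood at 177, 175 and 208 CPM in ControlΔEC and at 173, 134 and 163 CPM in Wt1KOΔEC. The groups did not overlap, but 175 and 173 CPM were nearly equal, and the log2 fold change of -0.25 (SE 0.16, 95% interval -0.62 to 0.12) had an adjusted p of 0.589. It was -0.16 without the third ControlΔEC library, -0.15 without the second Wt1KOΔEC library and -0.40 with total-count scaling. Kdr and Nrp2 were the 2 of the 10 members that were lower in Wt1KOΔEC without overlap, beside 8.97% of all genes tested. No member was higher in Wt1KOΔEC without overlap, against 10.3% of all genes.

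Within a library, Nrp1 exceeded Nrp2 by 3.93, 4.08 and 3.67 times in counts in ControlΔEC and by 3.58, 5.29 and 3.41 times in Wt1KOΔEC. The log2 difference between genotypes was 0.05, with p = 1 in the exact permutation test, and it turned to -0.15 without the second Wt1KOΔEC library. The ratio of Nrp1 to Kdr differed by 0.08 on the log2 scale (exact permutation p = 0.4, adjusted over the 6 ratios p = 0.6). The summed neuropilin level was 63.0 ± 3.95 CPM per kilobase in ControlΔEC and 54.3 ± 3.98 in Wt1KOΔEC (SD, n = 3 each). Its lowest ControlΔEC library, at 60.2, lay above its highest Wt1KOΔEC library, at 57.8. Of all single genes tested, 8.97% were lower in Wt1KOΔEC without overlap, and Nrp1 alone overlapped. The sum comes from the same counts as Nrp1 and Nrp2 and is not separate evidence.

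The ligands were measured far less evenly than the receptors. Pgf and Vegfc were present at moderate levels, Vegfa and Vegfb at low levels, and Vegfd in some libraries only. Pgf, a ligand of FLT1, stood at 99.8, 40.7 and 38.1 CPM in ControlΔEC and at 49.4, 46.3 and 51.5 CPM in Wt1KOΔEC. The first ControlΔEC library stood apart from the other five. The log2 fold change was -0.28 (SE 0.35, 95% interval -1.06 to 0.50, adjusted p = 0.825), and it turned to 0.32 without that library. Vegfc, a ligand of FLT4, stood at 49.9, 36.6 and 42.8 CPM in ControlΔEC and at 53.5, 29.7 and 38.7 CPM in Wt1KOΔEC. Its Wt1KOΔEC libraries spanned the whole control range, and the log2 fold change was -0.08 (SE 0.25, 95% interval -0.64 to 0.47, adjusted p = 0.940). The sign turned without the first ControlΔEC library (0.04) and without the second Wt1KOΔEC library (0.10).

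Vegfa, the main ligand of KDR, stood at 1.34, 2.98 and 0.867 CPM in ControlΔEC and at 0.640, 1.07 and 1.27 CPM in Wt1KOΔEC. These values rest on 25 to 147 counts per library, and the second ControlΔEC library was the highest. The log2 fold change of -0.80 had an SE of 0.95 (95% interval -2.94 to 1.33, adjusted p = 0.814), and without that library it was -0.16. Vegfb, a ligand of FLT1, stood at 1.90, 1.07 and 2.74 CPM in ControlΔEC and at 6.86, 2.42 and 4.12 CPM in Wt1KOΔEC. The lowest Wt1KOΔEC library lay under the highest ControlΔEC library. The log2 fold change of 1.23 was the largest among the members with counts in every library (SE 0.68, 95% interval -0.30 to 2.76, adjusted p = 0.499), and it was 0.78 without the first Wt1KOΔEC library. Beside Vegfb, the summed level of 8 epicardial markers was 16.4, 11.7 and 18.0 CPM in ControlΔEC and 54.9, 17.9 and 45.3 CPM in Wt1KOΔEC. The 6 libraries fell in the same order for both, but this rests on a near tie in the epicardial sum. Replicate 2 of Wt1KOΔEC stood at 17.92 CPM and replicate 3 of ControlΔEC at 18.04 CPM. The list was mixed, with a median log2 fold change of 1.17 and a value of -0.05 for Aldh1a2, its most abundant gene. No other marker list was set beside Vegfb, and the part of the epicardial markers in the Vegfb level was not tested. Vegfd, a ligand of FLT4, had 0, 0 and 16 counts in ControlΔEC and 0, 24 and 10 counts in Wt1KOΔEC, and a difference was not detectable at this depth (95% interval of the log2 fold change -4.34 to 6.26).

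The ratio of Vegfb to Vegfa was 1.41, 0.363 and 3.12 in ControlΔEC and 10.5, 2.25 and 3.22 in Wt1KOΔEC, a log2 difference of 1.86 with p = 0.2 in the exact permutation test (adjusted p = 0.4). It was 1.01 without the second ControlΔEC library and 1.201 without the first Wt1KOΔEC library. For Pgf to Vegfa the log2 difference was 0.53 (exact permutation p = 0.7, adjusted p = 0.84), and it turned to -0.15 without the second ControlΔEC library. Both pairs overlapped between genotypes. The summed ligand level was 36.5 ± 13.9 CPM per kilobase in ControlΔEC and 32.7 ± 5.21 in Wt1KOΔEC (SD, n = 3 each).

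Levels were compared between genes as CPM per kilobase of the union of their exons. Kdr led with a mean of 123.5 in ControlΔEC and 101.2 in Wt1KOΔEC, and its 6 libraries did not overlap those of Flt1, the next gene, at 50.3 and 56.7. Nrp1 followed at 47.5 and 41.3, and Flt1 exceeded it in 5 of the 6 libraries. Flt4 stood at 28.8 and 32.0, below Nrp1 without overlap. Pgf (20.3 and 16.8), Vegfc (15.1 and 14.2) and Nrp2 (15.51 and 13.04) formed a group whose neighbours overlapped, and Pgf also overlapped Flt4. Vegfb (0.585 and 1.37), Vegfa (0.402 and 0.231) and Vegfd (0.0649 and 0.125) lay far below them, and neighbours overlapped again. The order was the same in both genotypes except that Nrp2 and Vegfc changed places. When the length of the longest transcript was used, 6 of the 10 genes kept their place. Nrp1 then stood above Flt1, and Nrp2 above Vegfc. Counts were summed over transcripts, so the soluble forms of Flt1 and Nrp1 cannot be told apart from the membrane forms.

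**Figure D4:**
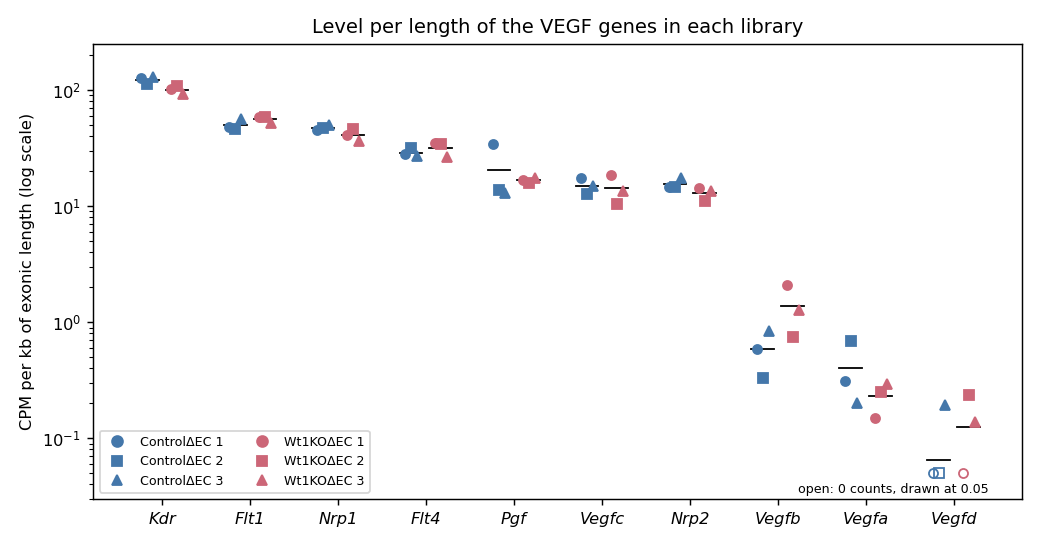
CPM per kilobase of exon (y axis, log scale) of the 10 VEGF genes in each library of ControlΔEC and Wt1KOΔEC, with bars at the means; open points are libraries with 0 counts, drawn at 0.05. Kdr lies above all other members, and Vegfb, Vegfa and Vegfd lie well below the other 7.

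The protein kinases, adaptors and small GTPases that carry the signal from the receptors had no called gene. Of 40 such genes, all tested, 1 was higher and 6 were lower at an unadjusted p below 0.05, with a median log2 fold change of -0.13. Over all genes tested, 5.96% were higher and 7.12% lower by this measure, and the median was -0.03. The higher gene was Hspb1, an actin-binding heat shock protein that is phosphorylated downstream of p38, at 113 ± 16.3 CPM in ControlΔEC and 271 ± 85.5 in Wt1KOΔEC (log2 fold change 1.26, SE 0.24, adjusted p = 0.110). Mapk14, which encodes p38 itself, had 49.0 ± 26.6 CPM in ControlΔEC and 21.7 ± 3.00 in Wt1KOΔEC (log2 fold change -1.18, SE 0.42, adjusted p = 0.288). The adaptor Crk had a log2 fold change of -0.96 (adjusted p = 0.216). The lower genes also included Sos1, a guanine nucleotide exchange factor (-0.72), Plcg1, the phospholipase that binds KDR (-0.49), and Nos3, the endothelial nitric oxide synthase (-0.49). Plcg1 was at -0.26 without the second ControlΔEC library. In DESeq2 the adjusted p was 2.4e-05 for Hspb1 and 0.0098 for Crk, and it lay above 0.05 for Mapk14, Sos1, Plcg1 and Nos3. Rac1, the most abundant gene of the list, stood at 829.8 ± 65.6 CPM in ControlΔEC and 803 ± 19.3 in Wt1KOΔEC.

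Of 24 receptor partners and trafficking genes, 0 were called and 1 was lower at an unadjusted p below 0.05, with a median of -0.13. That gene was Rab5a, a GTPase of early endosomes through which activated KDR passes, at 138 ± 67.3 CPM in ControlΔEC and 63.9 ± 12.1 in Wt1KOΔEC (log2 fold change -1.12, SE 0.33, adjusted p = 0.236). The third ControlΔEC library, at 72.6 CPM, lay inside the Wt1KOΔEC range of 53.9 to 77.3 CPM, and without the first ControlΔEC library the log2 fold change was -0.70. Itgb1, the integrin beta 1 chain, was the most abundant at 1251 ± 245 and 1176 ± 33.2 CPM. Of 18 tested genes for ligand processing and matrix binding, 0 were called and 2 were lower at an unadjusted p below 0.05, again with a median of -0.13. Hspg2, the basement membrane proteoglycan perlecan, stood at 1143 ± 344 CPM in ControlΔEC and 695 ± 128 in Wt1KOΔEC (log2 fold change -0.72, SE 0.23, adjusted p = 0.257), and -0.44 without the first ControlΔEC library. Ccbe1, which is needed to process VEGF-C, had 0.639 ± 0.596 CPM in ControlΔEC and 0.00936 ± 0.0162 in Wt1KOΔEC, below the limit of detection. In DESeq2 the adjusted p was 0.020 for Rab5a, 0.032 for Hspg2 and 0.284 for Ccbe1.

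Among 23 genes known to respond to VEGF, 1 was called. Plvap, the diaphragm protein of endothelial fenestrae and caveolae, rose from 68.1 ± 12.9 CPM in ControlΔEC to 338 ± 20.5 in Wt1KOΔEC (log2 fold change 2.31, SE 0.18, adjusted p = 0.00319, n = 3 each, edgeR). At an unadjusted p below 0.05, 5 of the 23 genes were higher and 5 lower, with a median of 0.05, beside 5.96% and 7.12% of all genes. Besides Plvap, the higher genes were the adhesion molecule Vcam1 (log2 fold change 1.02, adjusted p = 0.102), the tip cell gene Esm1 (0.65, adjusted p = 0.347), the tissue factor gene F3 (1.81, adjusted p = 0.117) and the homeobox gene Hlx (0.50, adjusted p = 0.328). The lower genes were the phosphatase Dusp5 (-1.53, adjusted p = 0.260), the tip cell ligand Apln (-1.0, adjusted p = 0.114), Nr4a2 (-0.59), Mef2c (-0.34) and Cd34 (-0.42), the most abundant gene of the list. Dusp5 was at -0.998 without the second ControlΔEC library. The 2 tip cell genes named here, Esm1 and Apln, thus had estimates in opposite directions. In DESeq2 the adjusted p was 9.6e-06 for Vcam1, 0.0013 for F3, 0.00043 for Apln and 0.026 for Dusp5. For Esm1, Hlx, Nr4a2, Mef2c and Cd34 it lay above 0.05. The paper, which used DESeq2, reports Apln as downregulated.

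Of 22 transcription factors that act on VEGF genes, 0 were called, 2 were higher and 3 lower at an unadjusted p below 0.05, and the median was 0.08. Prox1, the regulator of lymphatic identity, stood at 19.1 ± 8.18 CPM in ControlΔEC and 40.4 ± 5.36 in Wt1KOΔEC (log2 fold change 1.08, SE 0.32, adjusted p = 0.235). Nr2f2, a venous and lymphatic factor, had a log2 fold change of 0.91 (adjusted p = 0.258). The lower factors were Foxo1 (-0.89, adjusted p = 0.209), the hypoxia-responsive Epas1 (-0.66, adjusted p = 0.217) and the endothelial ETS factor Ets1 (-0.61, adjusted p = 0.217). Sox7 was the most abundant at 533 ± 34.1 CPM in ControlΔEC and 527 ± 41.7 in Wt1KOΔEC. In DESeq2 the adjusted p was 0.047 for Prox1, 0.027 for Foxo1, 0.011 for Epas1, 0.012 for Ets1 and 0.121 for Nr2f2. The paper reports Foxo1 and Epas1 as downregulated and Nr2f2 as not significantly changed. DESeq2 called 13 of the 127 tested genes on these 5 lists, or 10.2%, beside 3.64% of all genes tested. The lists were chosen with earlier results of these data known, so the 2 shares are not a test of the pathway.

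**Figure D5:**
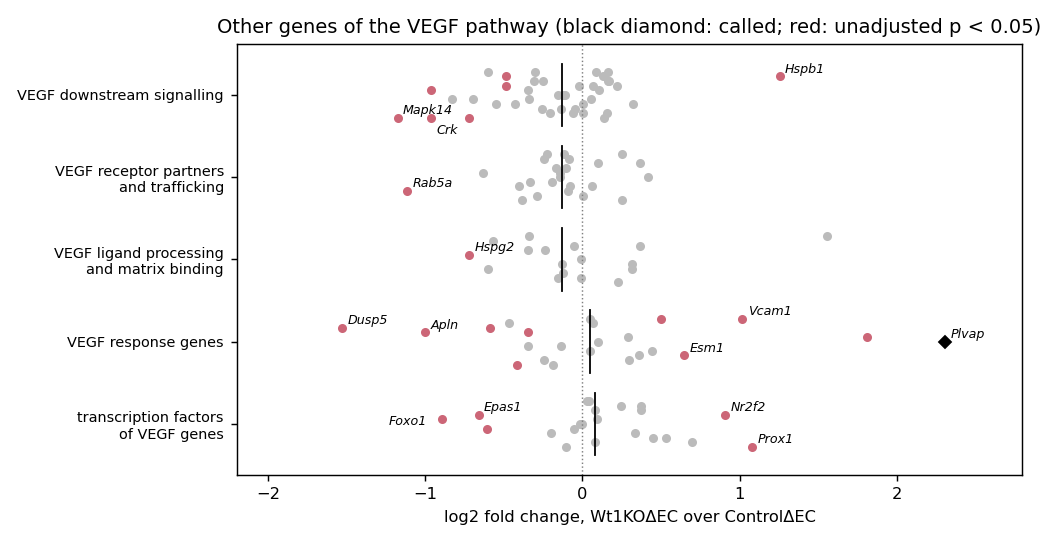
Log2 fold change (x axis) of each tested gene on the 5 VEGF pathway lists, with red points at an unadjusted p below 0.05, the called gene as a black diamond and vertical bars at list medians. Plvap stands at 2.31, and Ccbe1 lies outside the axis and is not drawn.

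Markers of some other cell types moved with genotype, and their part in the VEGF values was not tested. The sort on membrane GFP was meant to leave out cells without recombination, and staining in the study placed the reporter in coronary vessels and outside the endocardium and epicardium of the ventricles. The 10 endothelial markers summed to 6175 to 7758 CPM in ControlΔEC and 6057 to 7250 in Wt1KOΔEC, and 0 of them reached an unadjusted p below 0.05. Over all genes, 5.96% were higher and 7.12% lower at that p. Summed levels were higher in Wt1KOΔEC without overlap for lymphatic markers (76.3 to 143 against 248 to 395 CPM, 3 of 6 higher at an unadjusted p below 0.05: Prox1, Ccl21a and Mmrn1), for endocardial markers (248 to 344 against 387 to 496 CPM, 4 of 6) and for fibroblast markers (679 to 982 against 1347 to 1554 CPM, 5 of 8). Nfatc1, the most abundant endocardial marker, overlapped between genotypes (log2 fold change 0.25). Among the fibroblast markers, Postn had a lower estimate (-0.16) and Lum stood at 0.04. Col1a1, a collagen chain, was the called fibroblast marker and rose from 114 ± 12.5 to 290 ± 40.03 CPM (log2 fold change 1.34, edgeR adjusted p = 0.0441). The paper counts Col1a1, Col3a1 and Dcn, which are on this fibroblast list, as venous markers with raised expression. In its check of the sort, it also lists Col1a1 among fibroblast genes with relatively low counts. Gata4, on the endocardial list, stood at 31.0 ± 16.8 CPM in ControlΔEC and 93.8 ± 5.40 in Wt1KOΔEC. The paper reports Gata4 as upregulated in the mutant ECs and as a gene that should fall as coronary vessels develop. Which cells the transcripts came from was not tested. Mural markers summed lower (434 to 473 against 307 to 357 CPM, 3 of 7 lower at an unadjusted p below 0.05: Pdgfrb, Cspg4 and Abcc9). Abcc9 held most of that sum (263 ± 28.5 against 197 ± 35.1 CPM). Acta2 stood at a log2 fold change of -0.04, and Tagln alone had a higher estimate (0.92). The paper lists Kcnj8, another of these markers, as an arterial gene. Epicardial, cardiomyocyte, macrophage and erythroid sums overlapped. At an unadjusted p below 0.05, 2 of 8 epicardial markers were higher (median log2 fold change 1.17), 1 of 9 cardiomyocyte markers was higher (0.21), and 4 of 9 macrophage markers were lower (-0.73). Of 8 erythroid markers, 1 was higher and 2 were lower (-0.36). No marker on these lists was at 0 in all 6 libraries.

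The fold changes of the receptors were set beside those of genes of like length. Over the 1000 tested genes nearest in exonic length, the median log2 fold change was -0.08 for Kdr, -0.17 for Flt1, -0.02 for Flt4, -0.19 for Nrp1 and -0.14 for Nrp2. The value for Nrp1, -0.20, was thus close to the median of its length neighbours, and those of Flt1 and Flt4 had the opposite sign. For the ligands the medians lay between 0.04 and 0.08. Antisense genes share exonic bases with Nrp2 (383), Vegfc (300), Flt4 (237) and Vegfa (64), and Nrp1 shares 39 and 294 bases with antisense genes and 80 with Mir1903. The library kit does not mark strand, so reads from these stretches cannot be assigned to either partner.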

How the data were processed

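Total RNA (2 ng) from sorted cells was amplified by SMART-seq2 with 12 cycles for cDNA and 12 for the libraries, and 51-base reads were sequenced. The authors aligned reads with STAR 2.7.8a and estimated counts per gene with RSEM 1.3.0. The deposited values are these expected counts, not normalized, and they were rounded to whole numbers here. The submitters' notes name GRCm38 and the study's methods GRCm39, which leaves the counts of single genes with changed models uncertain.

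A gene needed 10 counts or more in 2 of the libraries to be tested, and the test ran across all 6 libraries with edgeR 4.0.16 (TMM, quasi-likelihood F test, R 4.3.3) and Benjamini-Hochberg adjustment. The study used DESeq2, which is an alternative here (1.42.0), as is limma-voom (3.58.1). A gene was called when its adjusted p lay below 0.05 and its log2 fold change exceeded 0.58 in size. The scripts were tested on simulated data. Ratios used counts plus 0.5 within a library and exact permutation tests. Lengths and positions came from GENCODE vM39 on GRCm39, with 54749 of 55416 genes matched by identifier.

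The members, lists and tests were chosen with earlier results of these data known. Named genes were the 10 members, Wt1 and, per pathway list, called genes, up to 4 genes with the largest fold change among those with an unadjusted p below 0.05 and at least 10 CPM, and the most abundant gene. Plcg1, Nos3, Sos1, Ccbe1, Hlx, F3, Nr4a2, Mef2c and Ets1 were named after their values were seen. A gene that the rule also names is not reported here. Intervals and the limit of 3 counts cover counting error only where no replicates enter. Alternatives were other tools, normalizations, filters, a replicate block, single libraries left out and transcript length.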

Additional observations from a re-analysis of the deposited data

How the results depend on the processing

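No VEGF gene was called under any of the 17 alternatives run for that count. The number of genes called moved from 12 to 593 with DESeq2, 296 without a filter on low counts, 113 with at least 10 counts in every library and 759 with DESeq2 without a filter, which was added after seeing the data. It ranged from 2 without the third Wt1KOΔEC library to 37 without the third ControlΔEC library. On the lists in the order of the report (signalling, partners, processing, response, transcription factors), DESeq2 called 2, 1, 1, 5 and 4 genes. Without a filter the counts were 2 for signalling, 1 for partners, 5 for response and 1 for transcription factors, and DESeq2 without a filter gave 2, 1, 6 and 4 for the same lists. With 10 counts in every library 1 signalling and 3 response genes were called, and leaving out single libraries gave 0 to 1 and 1 to 2. With the longest transcript as length, 6 of 10 genes kept their place in the order of levels, and 8 to 10 did so without single libraries. With libraries scaled by total counts alone, the median of all genes was -0.18, Flt4 turned to -0.0073, and Kdr, Nrp1 and Nrp2 had an unadjusted p below 0.05. Sox7 turned to 0.0084 with upper-quartile scaling. Leaving out single libraries turned the sign of Vegfc (-0.33 to 0.10), Pgf (-0.52 to 0.32), Itgb1 (-0.24 to 0.026), Rac1 (-0.10 to 0.011) and Sox7 (-0.066 to 0.048), and of the ratios Pgf to Vegfa (-0.15 to 1.07) and Nrp1 to Nrp2 (-0.15 to 0.16). Vegfd was not tested with 10 counts in every library. The cause of these changes was not tested.

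With the replicate number as a block, 5 genes were called, 0 of them VEGF genes, and Wt1 stayed at -2.92. Deviations from the genotype mean correlated at 0.0566, 0.00448 and 0.0201 between same-numbered libraries. Differently numbered libraries gave -0.0429 to 0.0250. With 3 libraries per genotype, such small values cannot decide whether the numbers pair the samples, and the labels do not name litters. Depth limits Vegfa, Vegfb and Vegfd, whose counts were low.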
